A study of Mus musculus with 17 samples.

Results

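The retinoic acid pathway was followed here through 9 genes, Rara, Rarb, Rarg, Rxra, Crabp1, Crabp2, Cyp26a1, Aldh1a2 and Stra8, out of 23891 gene symbols with a RefSeq transcript. They were taken by symbol, and each gene is represented by the transcript with the highest mean level over all 17 samples. The 9 genes have 19 transcripts among 32661. The level is given as FPKM, fragments per kilobase of transcript scaled between libraries by their upper quartile, which allows levels to be compared between genes. Of the 9 genes, 8 reached an FPKM of 1 in at least 2 samples, and Rarb did not.

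RNA sequencing covered 6 kinds of mouse cells. Spermatogonial stem and progenitor cells (SSC, 4 lines) were grown from the testes of adult mice on mouse embryonic fibroblasts with GDNF, bFGF and EGF, and were separated from the fibroblasts by a short plating on gelatin. Their strains were Oct4-GFP for 2 lines, C57Bl/6J for 1 and 129mix for 1. Multipotent adult spermatogonial-derived stem cells (MASC, 6 lines, 2 each of Oct4-GFP, 129mix and Gt(ROSA26)Sor-lacZ) arose from SSC cultures after long expansion without introduced factors, and were picked by hand as colonies that looked like embryonic stem cells. Embryonic stem cells (ESC, 1 Oct4-GFP and 1 129mix line) and MASC were kept on embryonic fibroblasts in medium with serum replacement and LIF. The 2 induced pluripotent lines (iPS, 129mix) were colonies from tetO-4F2A x H3.3B-HA fibroblasts, taken at E13.5 and treated in culture with doxycycline at 2 µg/ml. The 2 haematopoietic cultures (HSC, C57Bl/6J) were lineage-depleted bone marrow cells on E4ORF1-HUVEC feeders, and 1 sample of H3.3B-HA embryonic fibroblasts (MEF, 129mix, E13.5) had no replicate. The sources name separate lines but not separate animals, so p-values measure the spread between these lines. The study subcloned its MASC and ESC lines, and whether lines of the same strain share a parent line is not stated. SSC were kept in another medium than MASC and ESC, so cell type and medium cannot be told apart.

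Retinoic acid is made from vitamin A in consecutive oxidation steps, of which the last is catalysed by retinal dehydrogenases such as Aldh1a2. It is carried in the cytosol by the binding proteins Crabp1 and Crabp2 and is broken down by the cytochrome Cyp26a1. In the nucleus it binds the receptors Rara, Rarb and Rarg, which pair with retinoid X receptors such as Rxra on repeated half-sites in DNA. In the testis it drives spermatogonia to differentiate and enter meiosis, with Stra8 as its best known germline target, and Rarb and Cyp26a1 are induced by it in many cell types.

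Because Rarb, Cyp26a1 and Stra8 are classic targets of these receptors, the 300 bases just before their starts (genome build mm9, 5′ to 3′ on the strand of the gene) are shown with the receptor motif in capitals. The motif searched was a direct repeat of the half-site AGGTCA, with AGTTCA or else GGTTCA or else GGGTCA allowed in its place, on both strands, with a spacer of 5 bases. It was present before the starts of Cyp26a1 (NM_007811, chr19:37772298-37776026, plus strand, window chr19:37771998-37772297) and Rarb (NM_011243, chr14:17263354-17407990, minus strand, window chr14:17407991-17408290).
Cyp26a1: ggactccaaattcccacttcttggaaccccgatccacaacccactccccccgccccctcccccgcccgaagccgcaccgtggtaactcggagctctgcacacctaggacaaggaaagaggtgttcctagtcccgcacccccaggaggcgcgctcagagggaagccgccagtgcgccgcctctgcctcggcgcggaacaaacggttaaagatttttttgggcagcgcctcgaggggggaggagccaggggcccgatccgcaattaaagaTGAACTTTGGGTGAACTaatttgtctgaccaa
Rarb: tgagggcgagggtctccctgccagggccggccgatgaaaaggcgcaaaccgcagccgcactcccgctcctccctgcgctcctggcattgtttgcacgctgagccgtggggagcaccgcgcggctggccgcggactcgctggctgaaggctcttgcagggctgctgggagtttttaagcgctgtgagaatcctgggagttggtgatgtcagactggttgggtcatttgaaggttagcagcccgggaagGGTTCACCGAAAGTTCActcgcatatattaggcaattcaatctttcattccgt
Such a repeat occurred in 13 of 23362 windows of this length over all transcripts, or 0.0556%. The repeat of Cyp26a1 lay on the minus strand, 32 to 16 bases before the start, and that of Rarb on the plus strand, 53 to 37 bases before it. The search for spacers of 1 or 2 bases gave no further member, and these repeats occurred in 0.193% and 0.137% of windows. Stra8 (NM_009292, chr6:34870960-34889342, plus strand, window chr6:34870660-34870959) had no direct repeat but 2 copies of the half-site AGGTCA, shown in capitals, at 206 to 201 and 50 to 45 bases before the start.
Stra8: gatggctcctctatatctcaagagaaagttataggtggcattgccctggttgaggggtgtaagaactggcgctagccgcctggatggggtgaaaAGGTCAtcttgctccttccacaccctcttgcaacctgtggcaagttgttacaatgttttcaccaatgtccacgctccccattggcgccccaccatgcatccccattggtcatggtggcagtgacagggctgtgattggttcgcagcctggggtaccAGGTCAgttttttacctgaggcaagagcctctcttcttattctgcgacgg
At least 1 half-site alone was found in 42% of all windows. A match to these letters is a description and does not show that a receptor binds there.

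Facts on the libraries that touch the members are given first. Pearson correlations of log2(FPKM + 1) between lines were 0.916 to 0.964 in SSC and 0.943 to 0.984 in MASC. The FPKM of a whole library summed to 427143 to 517480 in SSC and to 557520 to 665975 in MASC. Summed markers followed the labels. The 6 pluripotency markers summed to 1112 to 1453 FPKM in MASC and 7.38 to 113 in SSC. In SSC.1, the highest SSC line, Pou5f1 alone had 94.5 FPKM. The 6 spermatogonial markers summed to 462 to 683 FPKM in SSC and 88.9 to 159 in MASC. Etv5 of this list did not follow the labels, with 11.4 to 123 FPKM in SSC and 81.1 to 128 in MASC. It made up most of the sum in every MASC line. Libraries differed in fibroblast RNA. The 8 fibroblast markers, collagens and others such as Dcn and Postn, were all above 0 in the 14 lines kept on embryonic fibroblasts, and their sum ran from 3.44 to 730 FPKM in SSC, from 15.9 to 846 in MASC, from 55.4 to 316 in ESC and from 2.58 to 31.1 in iPS, against 5372 in MEF. SSC.1, SSC.3, MASC.1 and ESC.1 had the highest sums of the 3 cell types compared most closely, and the fits were repeated without them. The HSC cultures stood apart from each other in the same markers, at 1.10 and 344 FPKM, with Lum listed at 0 in the first. The MEF sample also held blood markers, 304 FPKM in sum, mostly Fcer1g at 245, with Mpo at 0.

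Between MASC and SSC, 6 of the 9 members passed an adjusted p of 0.05 in limma (Benjamini-Hochberg over all transcripts), against 30.9% of all transcripts. Rarg, Crabp2 and Cyp26a1 were higher in MASC (background 11.4%), and Rara, Rxra and Aldh1a2 were lower (background 19.5%). This background holds many transcripts at very low levels, unlike most members. In a fit limited to the 20119 transcripts with an FPKM of 1 in at least 2 samples, 3755 were higher and 5788 lower. The median difference of the 9 members was -0.09 on the log2(FPKM + 1) scale, and that of all transcripts was -0.00480. Lines of both groups did not overlap for 4 of the 9 members, Rarg, Rxra, Crabp2 and Aldh1a2, against 25.3% of all transcripts. Without the 4 lines rich in fibroblast markers 4 of the 9 passed, Rarg, Rxra, Cyp26a1 and Aldh1a2. In that fit 2994 of 32661 transcripts were higher and 5458 lower. The criteria of the study were read as an unadjusted p under 0.05 together with a log2 change of 2 or more. They counted 3 of the 9, Rarg, Cyp26a1 and Aldh1a2, against 4.01% of all transcripts. Rarg was counted by its transcript with the highest mean level, and summed over its transcripts its difference was 1.31. The wording of the study can also be read as a 2-fold change, a log2 change of 1, and at that size and an adjusted p under 0.05 Rxra and Crabp2 were counted as well, 5 of the 9 against 15.6% of all transcripts. In a bulk sample, fewer cells that express a gene and less RNA per cell cannot be told apart, and this holds for every value below. Differences below are of mean log2(FPKM + 1) unless another unit is named, which understates changes of genes at low levels.

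**Figure D1:**
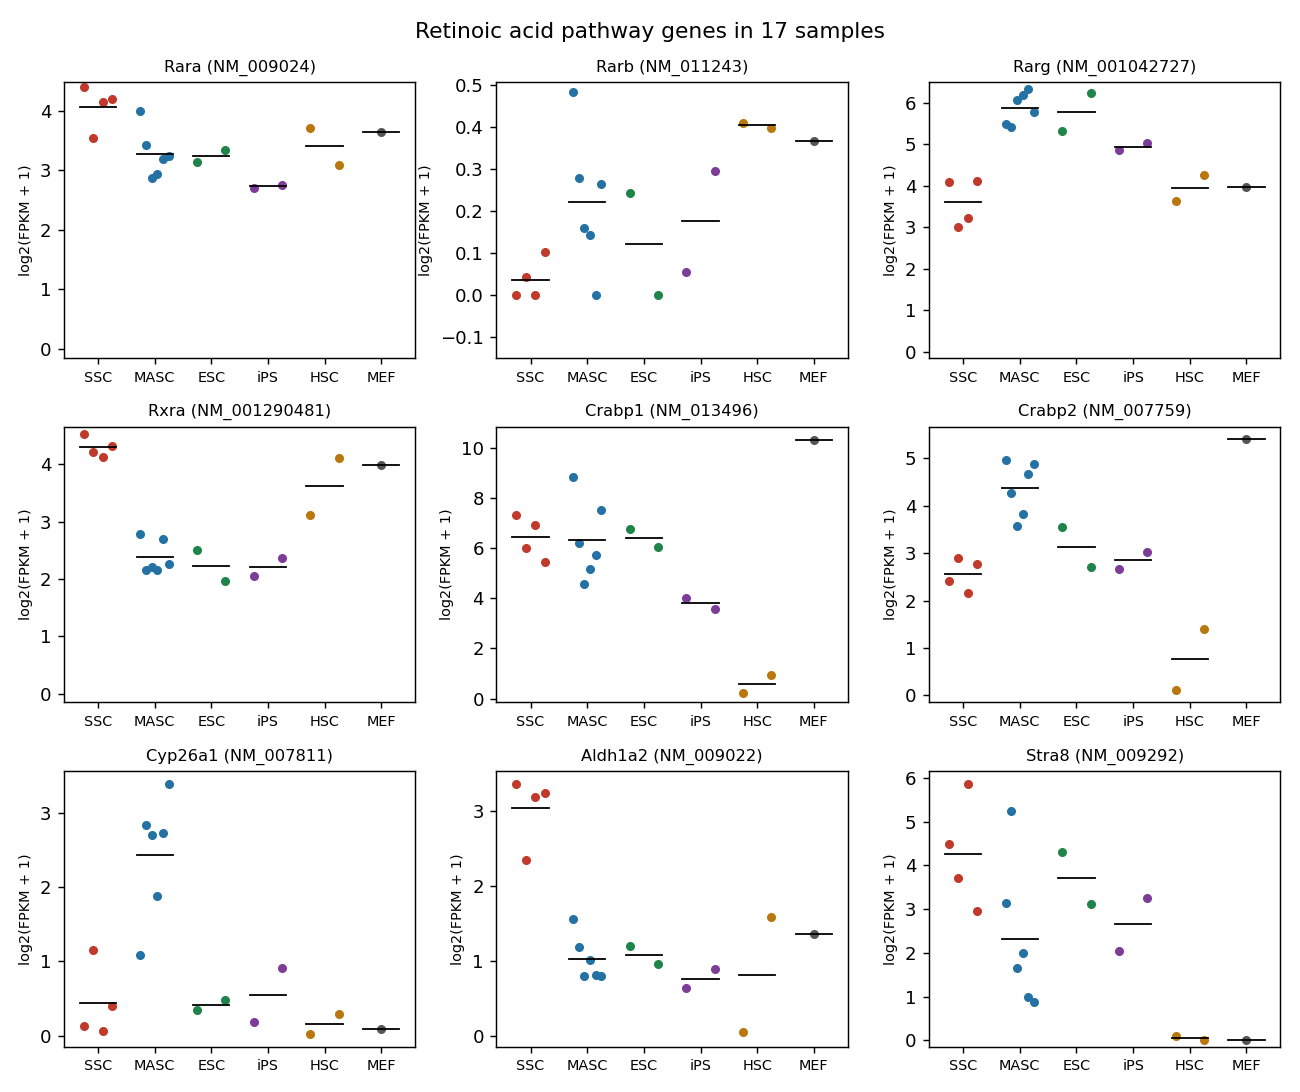
Each panel plots log2(FPKM + 1) of the member's main transcript in every sample, by cell type from left to right, with a black line at the mean of each group. The MASC lines of Rarg lie above all 4 SSC lines, those of Rxra and Aldh1a2 lie below them, and Stra8 is spread widely within SSC and MASC. The vertical scale differs between panels, and Rarb stays below 0.5.

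Among the receptors, Rarg (NM_001042727, chr15:102065369-102076931, minus strand) showed the largest rise. Its level was 16.1, 7.10, 8.31 and 16.3 FPKM in the SSC lines, and from 41.7 to 79.6 FPKM with a median of 59.9 in the 6 MASC lines. Every MASC line stood above every SSC line, by 2.27 ± 0.30 (SE; adjusted p = 0.000373, limma). An exact permutation test over the lines (two-sided) gave p = 0.00952, the smallest that 6 against 4 lines allow. ESC had 39.2 and 74.1 FPKM and also passed against SSC, at 2.17 ± 0.41 (adjusted p = 0.00442, limma). The order of the mean levels was MASC, ESC, iPS (28.2 and 31.6 FPKM), MEF (14.6), HSC (11.5 and 18.3) and SSC, and the ranges of MASC and ESC overlapped, as did those of MEF, HSC and SSC. Summed over the transcripts of the gene, the difference between MASC and SSC was smaller, 1.31 (adjusted p = 0.00905, limma), and between ESC and SSC it no longer passed (1.19, adjusted p = 0.0662).

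Rxra (NM_001290481, chr2:27564812-27618839, plus strand), the shared partner of the retinoic acid receptors, went the other way. The SSC lines had 22.0, 17.6, 16.4 and 18.9 FPKM, and the MASC lines 3.44 to 5.87 FPKM with a median of 3.71. No MASC line came near the SSC range, and the level was lower by 1.92 on the log2 scale (log2 difference -1.92 ± 0.17, SE; adjusted p = 2.64e-05, limma; exact permutation p = 0.00952). ESC, at 4.69 and 2.89 FPKM, differed from SSC by -2.06 ± 0.22 (adjusted p = 0.000211, limma). iPS had 3.15 and 4.15 FPKM, close to MASC and ESC. The upstream-start transcript NM_011305 was lower in MASC too, by -2.29 ± 0.38 (adjusted p = 0.00125, limma).

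Rara (NM_009024, chr11:98799010-98836256, plus strand) had 20.0, 10.7, 16.6 and 17.2 FPKM in SSC and 6.27 to 14.9 FPKM with a median of 8.24 in MASC. Only MASC.1, at 14.9 FPKM, exceeded the lowest SSC line. The difference of -0.79 ± 0.23 passed narrowly (adjusted p = 0.0268, limma; exact permutation p = 0.0190). It did not pass in 11 of 20 other settings, with the largest adjusted p, 0.883, when the FPKM of its transcripts were summed, where the difference was -0.06. The summed level of Rara was 14.2 to 22.6 FPKM in SSC and 15.2 to 23.5 in MASC.

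Rarb, the receptor gene that retinoic acid itself induces in many cells and that carries the repeat shown above, was low in all samples. Its highest level was 0.397 FPKM, in MASC.1, and the 4 SSC lines had at most 0.0738. The difference between MASC and SSC was 0.19 ± 0.09 (adjusted p = 0.141, limma) and did not pass. The exact permutation test gave p = 0.0476, which became 0.0635 to 0.119 when any 1 line but MASC.5 was left out and 0.0159 without MASC.5. As a sum over its transcripts, at most 0.431 FPKM in MASC, it passed at 0.19 (adjusted p = 0.0271, limma). At such levels the interval that Cufflinks gave for MASC.1, the sample with the most, was 0.283 to 0.512 FPKM.

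The transcripts of a receptor gene that start at different promoters encode isoforms with different amino ends, and their shares moved between cell types. This comparison was chosen after its values were seen. For Rarg, NM_001042727 starts inside the gene and NM_011244 starts upstream (its end at chr15:102087953 is the start on the minus strand), and the windows before both starts are shown because the share of each differed most here.
Rarg internal start: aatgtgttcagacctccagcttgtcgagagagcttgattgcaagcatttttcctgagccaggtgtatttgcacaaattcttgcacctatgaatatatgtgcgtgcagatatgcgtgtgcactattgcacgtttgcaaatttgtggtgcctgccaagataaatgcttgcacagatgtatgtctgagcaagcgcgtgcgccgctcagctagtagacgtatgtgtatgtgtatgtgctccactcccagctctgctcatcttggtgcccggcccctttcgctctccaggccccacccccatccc
Rarg upstream start: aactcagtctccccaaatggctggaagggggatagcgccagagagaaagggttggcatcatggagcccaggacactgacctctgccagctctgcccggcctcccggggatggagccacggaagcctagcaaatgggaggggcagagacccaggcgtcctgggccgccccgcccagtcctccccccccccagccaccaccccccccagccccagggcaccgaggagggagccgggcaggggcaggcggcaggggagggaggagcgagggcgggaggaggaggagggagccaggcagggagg
Both windows lacked the repeat, and their content of G and C was 51% and 71.3%. In SSC, the internal start held 40.1%, 51.8%, 32.7% and 48.0% of the FPKM of Rarg, and in MASC 81.6% to 88.5%. The groups did not overlap, and the means differed by 43.6 percentage points (86.8% ± 2.6 against 43.1% ± 8.5, SD, n = 6 and 4; exact permutation p = 0.00952, two-sided). ESC (85.4% and 90.3%), iPS (82.4% and 82.2%) and HSC (87.7% and 85.1%) were near MASC, and MEF, at 42.9%, was near SSC. The upstream transcript alone differed by -0.71 ± 0.31 between MASC and SSC (adjusted p = 0.116, limma) and did not pass.

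Rara showed the same kind of shift. The internal-start transcript NM_001176528 (start at chr11:98821785) had 2.22, 3.15, 2.03 and 3.13 FPKM in SSC and 6.25 to 11.4 FPKM with a median of 7.91 in MASC, with no overlap. It rose by 1.31 ± 0.17 (adjusted p = 0.000305, limma) while NM_009024 of the same gene fell by 0.79 on the log2 scale. The internal start made up 43.3% ± 5.5 of the FPKM of Rara in MASC and 14.3% ± 5.7 in SSC (SD, n = 6 and 4; exact permutation p = 0.00952, two-sided). ESC held 53.1% and 55.1%, and MEF 26.7%. For Rxra, the upstream start held 18.3% in MASC and 31.6% in SSC, and this difference of -13.4 percentage points did not pass (exact permutation p = 0.0857). Without MASC.1 it was -16.8 points (p = 0.0317, exact permutation). Cufflinks divides reads from shared exons between transcripts by a model, so these shares are estimates.

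**Figure D2:**
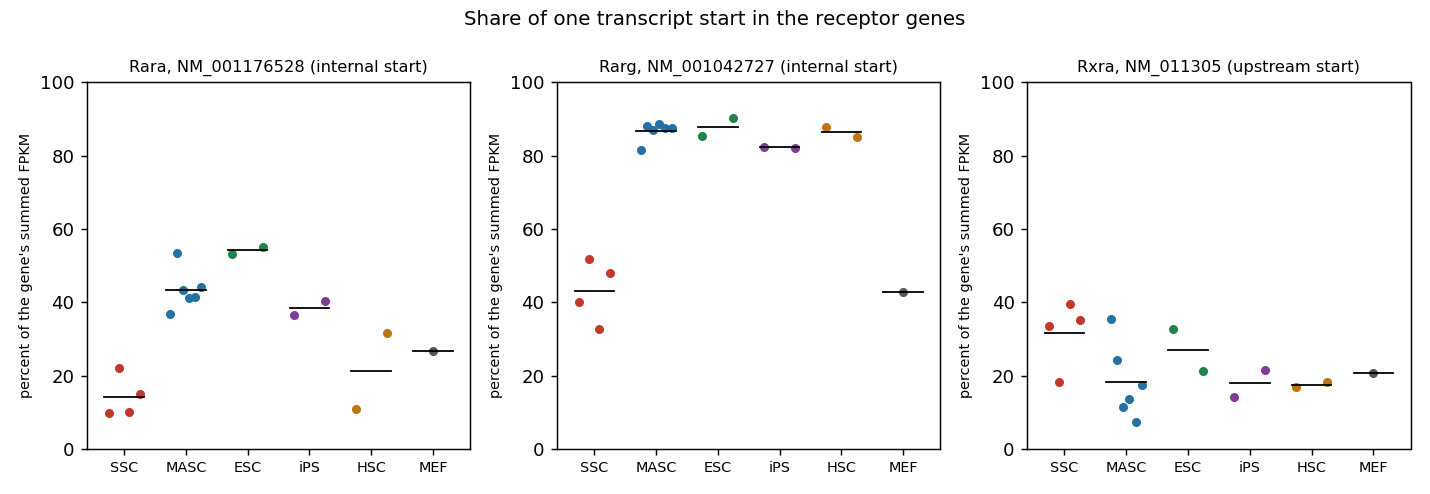
Each point is the percent of the gene's summed FPKM that 1 transcript held in 1 sample, by cell type, and the black lines are group means. The internal start of Rarg lies at 81.6% or above in every MASC line and at 51.8% or below in every SSC line, and that of Rara separates the same groups at lower shares.

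The binding proteins behaved differently from each other. Crabp2 (NM_007759, chr3:87752615-87757294), which delivers retinoic acid to the nucleus, had 4.32, 6.45, 3.50 and 5.79 FPKM in SSC and 10.96 to 30.1 FPKM with a median of 21.3 in MASC. All 6 MASC lines were above all 4 SSC lines, by 1.81 ± 0.32 (adjusted p = 0.00194, limma; exact permutation p = 0.00952). Without the 4 lines rich in fibroblast markers the difference was 1.42 (adjusted p = 0.0508, limma). ESC, at 10.7 and 5.49 FPKM, overlapped SSC and did not pass against it (0.56 ± 0.43, adjusted p = 0.433, limma). MEF had 41.3 FPKM, the highest of all samples.

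Crabp1 (NM_013496, chr9:54612555-54620917), the paralogue that keeps retinoic acid in the cytosol, was the most abundant member in MEF, at 1293 FPKM. It had 160, 63.7, 121 and 42.7 FPKM in SSC and 22.6 to 463 FPKM with a median of 63.2 in MASC, so the groups overlapped. The difference was -0.09 ± 0.81 (adjusted p = 1, limma). Over the 14 lines kept on fibroblasts, log2(FPKM + 1) of Crabp1 and of the summed fibroblast markers had a Pearson r of 0.70 and a Spearman rho of 0.73, a description of lines that share feeders. MASC.1, with the highest marker sum (846 FPKM), also had the highest Crabp1 of these lines, but MASC.6, with 183 FPKM of Crabp1, had a marker sum of only 46.7. Of the other members, Rara (r = 0.62, rho = 0.61), Stra8 (0.56 and 0.56) and Aldh1a2 (0.42 and 0.60) had the next highest values over the same lines. The r was 0.34 for Rarb, 0.25 for Rxra, 0.06 for Crabp2, -0.08 for Rarg and -0.24 for Cyp26a1. The part of fibroblast RNA in these levels was not tested.

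**Figure D3:**
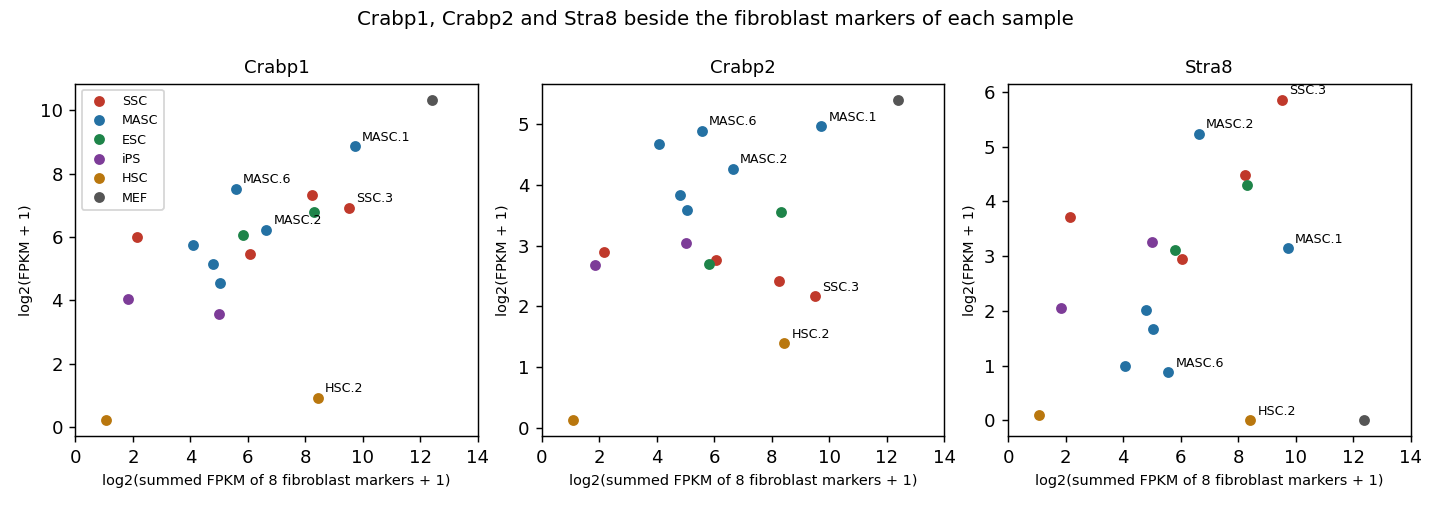
The level of Crabp1, Crabp2 and Stra8, as log2(FPKM + 1), is plotted against the log2 of the summed FPKM of 8 fibroblast markers plus 1, with 1 point a sample coloured by cell type. Crabp1 climbs toward the MEF sample at 1293 FPKM, Crabp2 of the MASC lines is between 10.96 and 30.1 FPKM at low and high marker sums, and Stra8 is 0 in MEF.

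Aldh1a2 was lower and Cyp26a1 higher in MASC than in SSC. Aldh1a2 (NM_009022, chr9:71063596-71144050), which makes it, had 9.32, 4.11, 8.15 and 8.44 FPKM in SSC and 0.732 to 1.94 FPKM with a median of 0.880 in MASC. Every MASC line was below every SSC line (-2.01 ± 0.22, SE; adjusted p = 0.000113, limma; exact permutation p = 0.00952). ESC, at 1.29 and 0.936 FPKM, were lower than SSC by a similar amount (-1.96 ± 0.30, adjusted p = 0.00138, limma). The 5 markers of spermatocytes and spermatids summed to 16.95 to 61.0 FPKM in SSC and 2.05 to 6.08 in MASC. Nearly all of this was Sycp1, of the synaptonemal complex, at 15.5 to 59.8 and 1.98 to 6.03 FPKM, while Tnp1 was at 0 in all 10 lines and Spo11, Prm1 and Acrv1 had at most 1.13. The 6 Sertoli cell markers summed to 21.8 to 37.1 FPKM in SSC and 9.52 to 20.8 in MASC. An FPKM of 1 was reached by 3 to 4 of these markers in SSC lines and by 2 to 5 in MASC lines. Their part in the level of Aldh1a2 was not tested.

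Cyp26a1, which breaks retinoic acid down, had 0.0920, 1.22, 0.0493 and 0.314 FPKM in SSC and 1.12 to 9.49 FPKM with a median of 5.56 in MASC. MASC.1 was the lowest MASC line, and only SSC.2 overlapped it. The rise was 2.00 ± 0.42 (adjusted p = 0.00547, limma; exact permutation p = 0.0190), and 1.93 without the 4 lines rich in fibroblast markers (adjusted p = 0.0251). With strain as a block it was 1.55 (adjusted p = 0.0651, limma). ESC had 0.276 and 0.393 FPKM and iPS 0.137 and 0.888, all below the lowest MASC line at 1.12.

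**Figure D4:**
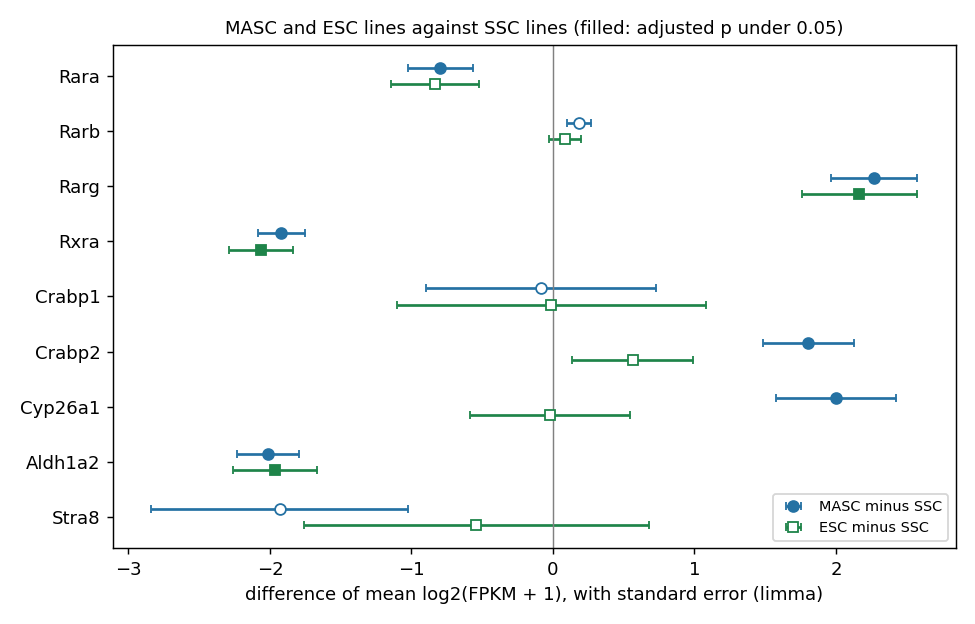
Differences of mean log2(FPKM + 1) between MASC and SSC (circles) and between ESC and SSC (squares) are shown with their standard errors from limma for the 9 members, and filled symbols passed an adjusted p of 0.05. Rarg lies at 2.27 and 2.17, Rxra and Aldh1a2 lie near -2 in both, and Cyp26a1 lies at 2.00 for MASC and near 0 for ESC.

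Stra8, the germline gene that retinoic acid induces before meiosis, was the least even member. SSC lines had 21.3, 12.1, 56.96 and 6.75 FPKM, and MASC lines 0.835 to 36.6 FPKM with a median of 2.59. The groups overlapped, mainly through MASC.2 at 36.6 FPKM, and the difference of -1.93 ± 0.91 did not pass (adjusted p = 0.145, limma; exact permutation p = 0.0952). Without MASC.2 the difference was -2.51 and passed (adjusted p = 0.0222, limma). It did not pass in the other 19 alternative fits, and it shrank to -0.42 with strain as a block (adjusted p = 0.675) and to -1.18 without the 4 lines rich in fibroblast markers (adjusted p = 0.612). ESC had 18.8 and 7.65 FPKM and iPS 3.13 and 8.60, while it was listed at 0 in MEF and in 1 HSC culture and at 0.0732 in the other.

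Between ESC and SSC, 3 of the 9 members passed, Rarg, Rxra and Aldh1a2, against 21.4% of all transcripts (7.67% higher and 13.8% lower). Leaving out the 4 lines rich in fibroblast markers leaves a single ESC line, so no count is given for that fit. The criteria of the study counted 2 of the 9, Rarg and Rxra, against 4.5%. Summed over its transcripts, the difference of Rarg was 1.19. ESC and MASC were compared with the same SSC lines. Between MASC and ESC, 0 of the 9 members passed in limma, against 0.0306% of all transcripts. The share of all transcripts with an unadjusted p under 0.05 was not counted, and 2 members had such a p. These were Cyp26a1 (2.02 ± 0.54, unadjusted p = 0.00397) and Crabp2 (1.24 ± 0.40, unadjusted p = 0.0123), both with an adjusted p of 1. The lowest MASC line was at 1.12 FPKM for Cyp26a1 and 10.96 for Crabp2, above the higher ESC line at 0.393 and 10.7. How many of all transcripts separate the MASC and ESC lines in this way was not counted. The criteria of the study counted 1 member, Cyp26a1, against 0.147% of all transcripts. For Stra8 the difference was -1.39 ± 1.15 (adjusted p = 1). Between iPS and ESC, 0 of the 9 members passed against 0.309%, and 1 had an unadjusted p under 0.05, Crabp1 (-2.62 ± 1.16, unadjusted p = 0.0438, adjusted p = 0.599, limma). Here too the share of all transcripts at that unadjusted p was not counted.

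HSC held little Crabp1, Crabp2 or Stra8. Against SSC, 5 of the 9 members passed (background 33.4%, with 12.7% higher and 20.7% lower): Crabp1 (-5.87 ± 1.00), Crabp2 (-1.80 ± 0.46), Aldh1a2 (-2.22 ± 0.39) and Stra8 (-4.20 ± 1.13) were lower, and Rarb was higher by 0.37 ± 0.11 at levels of 0.318 and 0.329 FPKM. Crabp1 was at 0.153 and 0.898 FPKM in HSC, below every other sample. Aldh1a2 was 0.0296 in HSC.1 and 2.01 FPKM in HSC.2, the culture with 344 FPKM of fibroblast markers. Stra8 did not pass when either HSC culture was left out (adjusted p = 0.0603 and 0.0670, limma). In all, 2 members passed without HSC.1, and 4 without the 4 lines rich in fibroblast markers. Against MASC, 5 of the 9 passed (background 31.6%, with 14.8% higher and 16.8% lower), with Rxra higher by 1.24 ± 0.26. Rarg (-1.92 ± 0.37), Crabp1 (-5.78 ± 0.94), Crabp2 (-3.61 ± 0.43) and Cyp26a1 (-2.28 ± 0.50) were lower. Without the 4 lines 5 passed, and in that fit 4771 of 32661 transcripts were higher and 5900 lower. Rxra was at 7.67 FPKM in HSC.1 and 16.3 in HSC.2, the culture richer in fibroblast markers. Its difference was 0.74 without HSC.2 and did not pass (adjusted p = 0.0782, limma), and it was 1.73 without HSC.1.

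Strains were not spread evenly over the cell types, so the differences were also taken within a strain. Oct4-GFP gave 2 SSC and 2 MASC lines, and 129mix gave 1 SSC and 2 MASC lines. In Oct4-GFP and 129mix the MASC against SSC difference was 1.90 and 2.02 for Rarg, -1.91 and -2.14 for Rxra, -1.49 and -2.34 for Aldh1a2, 1.96 and 0.94 for Crabp2, and 1.32 and 1.90 for Cyp26a1. Rara differed by -0.26 and -1.29, Stra8 by 0.10 and -1.12, and Crabp1 by 0.87 and -0.59. For 0 of the 9 members did the difference between strains pass in limma (243 of 32661 transcripts did, and 3848 had an unadjusted p under 0.05).

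The other genes of retinoid biology were taken as 9 lists with 53 genes, of which 47 reached an FPKM of 1 in at least 2 samples. Between MASC and SSC, 7 of the 53 were higher and 14 lower, against 11.4% higher and 19.5% lower of all transcripts. In a fit limited to the 20119 transcripts with an FPKM of 1 in at least 2 samples, 3755 were higher and 5788 lower. The median difference of the 53 genes was -0.08. The germline targets and regulators made up most of the lower genes, 8 of 11, with none higher and a list median of -3.40. They included Dazl, an RNA-binding protein of germ cells (-5.88 ± 0.43, adjusted p = 8.71e-06, limma), Zbtb16, a factor of spermatogonial self-renewal (-5.32 ± 0.28), the sex determination factor Dmrt1 (-4.56 ± 0.39), the translational repressor Nanos2 (-3.40 ± 0.20) and Rec8, a meiotic cohesin that retinoic acid induces (-2.78 ± 0.43). Kit, the receptor of differentiating spermatogonia, had -1.30 ± 0.53 and did not pass (adjusted p = 0.0926, limma). The spermatogonial markers named above include Dazl, Zbtb16 and Gfra1, so this list repeats part of that check.

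Upstream of the receptors, 1 of 6 genes of uptake and storage passed, the plasma retinol carrier Rbp4 (-3.25 ± 0.40, adjusted p = 0.000234, limma). Of 8 oxidoreductases that act on retinol and retinal, Rdh11 (1.21 ± 0.13) and Adh5 (1.39 ± 0.13) were higher in MASC and Rdh14 (-1.03 ± 0.06) was lower. The remaining retinal dehydrogenases did not pass, with -0.39 ± 0.27 for Aldh1a1 and 0.31 ± 0.26 for Aldh1a3. Neither did the further breakdown enzyme Cyp26b1, at 0.63 ± 0.55 (adjusted p = 0.459, limma). The other receptors gave 1 call of 6, Rxrg (0.37 ± 0.09, adjusted p = 0.0124, limma), while Rxrb had -0.20 ± 0.25. Rxrg was low, at 0.0767 to 0.103 FPKM in SSC and 0.244 to 0.757 in MASC, and under 1 FPKM in all 17 samples.

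Downstream, 3 of 9 cofactors were higher and 4 lower. The acetyltransferase Crebbp had -1.56 ± 0.24 and the coactivator subunit Med1 -1.30 ± 0.10, both past the threshold. Of 8 somatic targets, 1 passed, the homeobox gene Meis1 (0.99 ± 0.30, adjusted p = 0.0319, limma). Between ESC and SSC, 5 of the 53 genes were higher and 14 lower, against 7.67% higher and 13.8% lower of all transcripts. Again 8 of 11 germline genes were lower. Between MASC and ESC 0 of the 53 passed in limma and 1 had an unadjusted p under 0.05, and between iPS and ESC 0 passed and 5 had one. The shares of all transcripts at this unadjusted p were not counted. Without the 4 lines rich in fibroblast markers, 18 of the 53 passed between MASC and SSC. In that fit 2994 of 32661 transcripts were higher and 5458 lower.

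**Figure D5:**
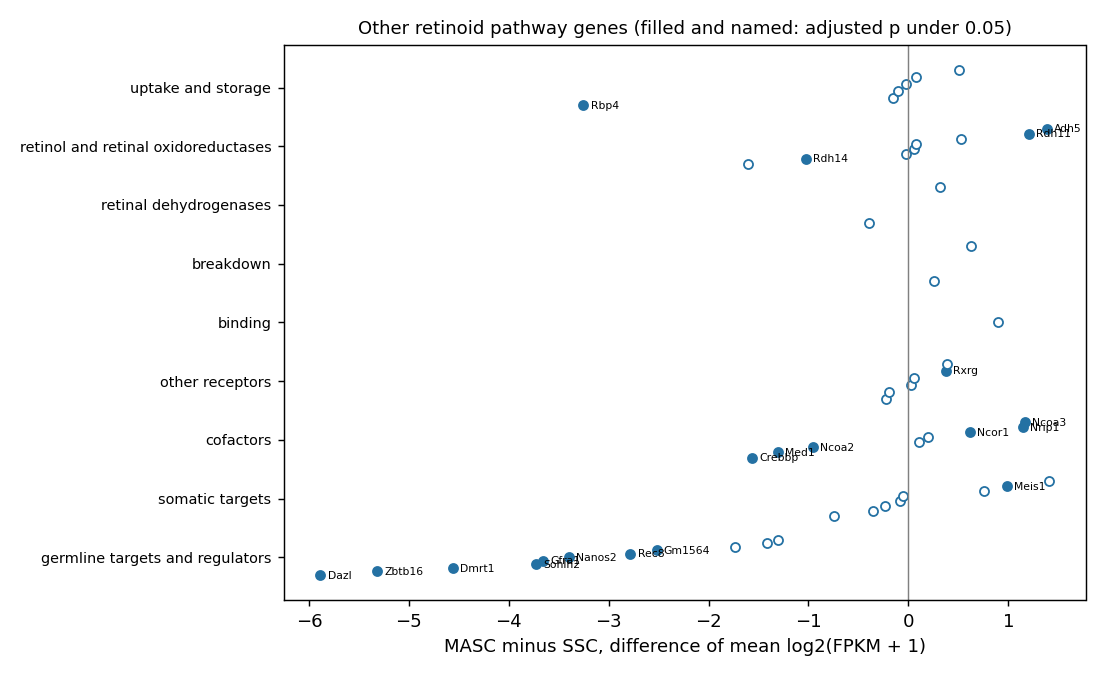
Each point is a further gene of retinoid biology, placed by its difference of mean log2(FPKM + 1) between MASC and SSC and grouped by list, and filled, named points passed an adjusted p of 0.05. The germline list extends from -1.30 down to Dazl at -5.88, and most points of the other lists lie within 1 of 0.

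The 13 windows with the spacer of 5 bases belonged to 13 gene symbols with 20 transcripts. Of these transcripts, 5 (25%) passed between MASC and SSC, 3 higher and 2 lower, against 30.9% of all transcripts, and the difference of Cyp26a1 was the largest in size. Rarb, with the same spacing, stayed under 0.4 FPKM.

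The genes with the pattern most like each member were ranked by the Pearson r of log2(FPKM + 1) over 17 samples among 15274 genes. These r follow the differences between groups and describe likeness only. Nearest to Rarg was Pitpnb (r = 0.96), to Rxra Slc39a6 (0.97), to Aldh1a2 Trrap (0.97), to Crabp2 Tspan6 (0.93) and to Rara Socs1 (0.91). Cyp26a1 was nearest to T, the mesoderm factor brachyury (0.89), Crabp1 to Tenm3 (0.89) and Stra8 to Nprl3 (0.90).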

How the data were processed

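The authors aligned reads to mm9 with TopHat2 (2.0.11) and estimated FPKM per RefSeq transcript with Cufflinks, with upper-quartile and GC normalization, after excluding duplicate and multiply aligned reads. Whether strand was used is not given in the sources used here. The deposited files hold 33262 rows each, of which 32661 RefSeq transcripts were used and 601 further loci were left out. They give FPKM with confidence limits, and the deposited signal of coverage (mean read depth per base), which was 1.26 to 3.23 per FPKM unit between libraries. No read counts were used, and no count test was run. Transcript starts were counted from 1.

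The authors compared groups with limma, and the same was done here. log2(FPKM + 1) of SSC, MASC and ESC (12 lines) was fitted with limma (3.58.1, R 4.3.3) without a block and without a filter. Comparisons with iPS and HSC came from a fit over all 17 samples, and MEF was not tested. P-values were adjusted by Benjamini-Hochberg over all transcripts. Single members were also compared by exact permutation tests over lines (scipy 1.17.1). A filter of FPKM 1 in 2 samples, a pseudocount of 0.1, quantile normalization, a shift of medians, sums per gene, strain and replicate blocks, leaving out lines and the log2 threshold of 2 used in the study with an unadjusted p were tried as alternatives. The scripts were tested on simulated data. There limma recovered 29 of 100 transcripts changed by a log2 of 1 and 74 of 100 changed by 2 between MASC and SSC. It made 3 false calls among 32661. Far fewer transcripts were changed there than were called in the data, which makes the adjustment stricter. These rates therefore do not carry over to the real comparison.

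The members and all lists were chosen with earlier results of these data known. Pathway genes were named where they were among the 3 called genes of a list with the largest MASC against SSC difference, and Kit, Rec8, Nanos2, Dmrt1, Cyp26b1, Rxrb, Aldh1a1 and Aldh1a3 whatever their values. The value of 1 such gene is not reported here. Promoter windows were read from the mm9 genome, and protein sequences are not given.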

Additional observations from a re-analysis of the deposited data

How the results depend on the processing

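Some calls depended on the settings tried, among them several with ESC or HSC. Rara lost its call between MASC and SSC in 11 of 20 alternative fits, and Crabp2 and Cyp26a1 in 1 each. Between MASC and SSC, Rarg, Rxra and Aldh1a2 kept direction and call in all 20 alternative fits at an adjusted p of 0.05. Rxra, at -1.92, was not counted under a log2 threshold of 2. The study's criteria were read as an unadjusted p under 0.05 together with a log2 change of 2 or more. Under them 3 of the 9 members were counted between MASC and SSC, with Rarg by its main transcript, and 1 between MASC and ESC. Of the 53 further genes, 10 were counted between MASC and SSC and 10 between ESC and SSC. The shares of all transcripts were 4.01% between MASC and SSC, 4.5% between ESC and SSC and 0.147% between MASC and ESC. Leaving out single lines gave 5 to 7 members and 20 to 23 further genes between MASC and SSC. Over the same fits, 3233 to 3749 of 32661 transcripts were higher and 5585 to 6445 lower. With ESC or HSC such a fit can leave 1 sample in a group, where calls changed but counts are not given. Of the exact tests, 6 to 7 of 9 were under 0.05 (7 with all lines). These tests were run on the members only, so the share of all transcripts under 0.05 is not known. Of all transcripts, 25.3% did not overlap between MASC and SSC lines, which gives the smallest p. Differences in start share were 27.1 to 31.7 percentage points for Rara, 40.2 to 46.5 for Rarg and -17.8 to -10.8 for Rxra. Without SSC.1, SSC.3 and MASC.1, 0 of the exact tests passed, since 5 against 2 lines cannot go below 0.0952, and the shares differed by 26.1 points for Rara and 37.9 for Rarg (both exact permutation p = 0.0952).

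Reversals concerned members that did not pass. Crabp1 between MASC and SSC was 0.0646 after a shift of medians, 0.23 with a strain block, 0.11 without the 4 lines rich in fibroblast markers (a choice made after seeing the data) and -0.59 to 0.27 without single lines. Between ESC and SSC it was 0.18, 0.45, 0.33 and -0.37 to 0.35 under the same settings. Cyp26a1 between ESC and SSC was 0.28 with a pseudocount of 0.1, 0.0734 after quantile normalization, 0.17 after the shift of medians and -0.14 to 0.22 without single lines. Without the 4 lines Rarb was -0.0724 and Crabp2 -0.13 between ESC and SSC, Rara was 0.027 as a sum over transcripts, and Stra8 was 0.28 with a strain block. Without single lines Rarb was -0.0362 to 0.206 and Stra8 -1.14 to 0.0548. The causes were not tested. The shift of medians moved the median of all transcripts between MASC and SSC from -0.00480 to 0.15, and calls from 3739 higher and 6360 lower to 13166 and 5277. Quantile normalization changed those between HSC and SSC from 4159 higher and 6747 lower to 5485 and 5388.

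SSC and MASC lines with the same number did not deviate together (correlations of -0.23 to 0.18), so the numbers were not read as pairs. With a replicate block, 5 members passed between MASC and SSC and 2 between ESC and SSC. Of all 32661 transcripts, 2271 were then higher and 3674 lower between MASC and SSC. Between ESC and SSC these counts were 1272 and 2105. Rara (-0.76, adjusted p = 0.162) between MASC and SSC, Rarg between ESC and SSC (2.36, 0.0578), Rarb between HSC and SSC (0.32, 0.117) and Rxra between HSC and MASC (1.18, 0.0626) no longer passed.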
